A study of Mus musculus with 12 samples.

Results

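Imprinted genes are transcribed mainly from the copy inherited from 1 parent, and 39 mouse genes of this class from outside the H19-Igf2 and Dlk1-Meg3 clusters were followed through the naive to primed transition and after loss of Sirt1. They were chosen by name, by matching the gene names of the deposited tables, and all 39 were found, at 42 of the 23136 named loci. Commd1 has 4 loci, and Snrpn shares a locus with Snurf and the small nucleolar RNA Snord64. Of the 42 loci, 33 (30 genes) passed a filter (FPKM of 1 or more in 3 or more libraries) and were tested, among 12320 named loci in all. FPKM, fragments per kilobase of transcript scaled to the mapped fragments of a library, allows levels of different genes to be compared. The other 9 loci stayed under 1 FPKM in all 12 libraries.

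Polyadenylated RNA was sequenced from C57 Bl/6J mouse cells in 4 groups of 3 libraries. Epiblast-like cells (EpiLC), which resemble the epiblast after implantation, were made from wild-type embryonic stem cells (ESC) on fibronectin in 48 h; their medium held Activin A at 20 ng/ml, Fgf2 at 12 ng/ml and the serum replacement KOSR (1%). The other groups were ESC labelled Sirt1KO, Otx2KD (hereafter Sirt1KO Otx2KD), ESC labelled Sirt1KO, and wild-type ESC. These 3 groups grew on gelatin in serum-free N2B27 medium with LIF and inhibitors of GSK3 (CHIR99021, 3 uM) and MEK (PD0325901, 1 uM), which hold the naive state that resembles the epiblast before implantation. Not stated in the labels are the deleted part of Sirt1, the number of clones, the means of Otx2 knockdown and whether replicates are separate cultures, so p-values measure only the spread between these libraries, which may be technical.

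Imprinting is set by DNA methylation that the egg or the sperm lays down at control regions and that is copied when the cells of the body divide. The zinc finger protein Zfp57 binds methylated copies of the hexamer TGCCGC in these regions and recruits Trim28, which keeps the mark in place while the rest of the early embryo genome loses methylation. Genes read from the paternal copy often promote growth of the embryo and placenta, and genes read from the maternal copy often restrain it. Some control regions start long non-coding RNAs, such as Airn and Kcnq1ot1, that silence their neighbours on the same chromosome. The data here hold total RNA per locus and do not separate the 2 parental copies. DNA methylation was not measured, so whether the cultured cells keep their imprints is not known from these data.

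Library labels and cell markers were checked first. Sirt1, the NAD-dependent deacetylase, had 15.6 ± 0.492 FPKM in Sirt1KO Otx2KD, 15.5 ± 0.196 FPKM in Sirt1KO and 25.8 ± 0.412 FPKM in wild-type ESC (mean ± SD, n = 3 each, as in all values of this form below). The value covers the whole gene, so RNA from outside the deleted part is counted. Otx2, a homeobox factor of the primed state, had 6.07 ± 0.401 FPKM in Sirt1KO Otx2KD and 27.0 ± 6.36 FPKM in Sirt1KO. It had 100.2 ± 3.45 FPKM in EpiLC and 7.38 ± 0.458 FPKM in wild-type ESC. The level after knockdown thus lay far below that of Sirt1KO and only slightly below that of wild-type ESC. All 6 pluripotent cell markers and all 6 primed markers were tested. The pluripotent ones summed to between 1674 and 1746 FPKM in EpiLC and 2370.4 and 2423 in Sirt1KO Otx2KD. In Sirt1KO this sum lay between 1949 and 2069.9 FPKM, and in wild-type ESC between 2268 and 2357. The primed ones summed to between 961 and 997 FPKM in EpiLC, 50.0 and 53.0 in Sirt1KO Otx2KD, 219 and 321 in Sirt1KO and 34.3 and 38.3 in wild-type ESC. The primed list includes Otx2 itself. Naive markers summed to between 191 and 198 FPKM in EpiLC and 709.6 and 733 in Sirt1KO Otx2KD. Their sums were between 657 and 762 FPKM in Sirt1KO and 698 and 720.1 in wild-type ESC. These sums hide opposite changes. In Sirt1KO against wild-type ESC, 2 of the 6 naive markers were called higher and 4 lower, where 32.4% and 32.7% of all tested loci were. Fibroblast and feeder cell markers (16 genes, of which Fap and Pdgfra stayed under 1 FPKM in every library) summed to between 105 and 112 FPKM in EpiLC, 329.7 and 337 in Sirt1KO Otx2KD, 19.3 and 23.7 in Sirt1KO and 172 and 199.7 in wild-type ESC. In bulk RNA, fewer cells of a type and less RNA per cell cannot be told apart. Trophoblast markers (8 genes, of which Prl3d1 and Tpbpa were listed at 0 in all libraries and 6 in all stayed under 1 FPKM) summed to between 7.22 and 8.55 FPKM in EpiLC, 56.1 and 58.0 in Sirt1KO Otx2KD, 28.8 and 32.8 in Sirt1KO and 80.3 and 85.2 in wild-type ESC. Neural markers summed to between 64.8 and 69.4 FPKM in EpiLC, 174 and 185 in Sirt1KO Otx2KD, 127 and 137 in Sirt1KO and 247 and 266 in wild-type ESC. Primitive endoderm markers summed to between 12.3 and 13.3 FPKM in EpiLC and 14.1 and 16.1 in Sirt1KO Otx2KD. Their sums were between 9.99 and 10.8 FPKM in Sirt1KO and 7.84 and 8.87 in wild-type ESC. Other sums hide mixed directions too. Against wild-type ESC, 2 of the 5 tested neural markers were called higher and 3 lower in EpiLC (35.8% and 38.8% of all tested loci). Of the 2 tested trophoblast markers, 1 was higher and 1 lower in Sirt1KO. The part of cells of these types in the results below was not tested. The loci tested on chromosome 11 (1039) had a median log2 fold change against wild-type ESC of -0.46 in EpiLC, of -0.39 in Sirt1KO Otx2KD and of -0.49 in Sirt1KO, which touches Grb10, Zrsr1 and Commd1. On chromosome 6, the medians were 0.03 in EpiLC, 0.19 in Sirt1KO Otx2KD and 0.15 in Sirt1KO, which touches Peg10, Sgce, Ppp1r9a, Mest and Copg2.

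The promoters of several members lie within control regions that carry methylation from the egg, and the hexamer named above can be read from their sequence. RefSeq promoter windows (build GRCm38.p6, 250 bases upstream of a start) were found for 32 of the 39 genes, 47 windows in all. TGCCGC was searched on both strands, that is as TGCCGC or GCGGCA, which cannot overlap another motif here because no other was searched. It occurred in 7 of the 47 windows (14.9%), which belong to Zdbf2, Mest, Copg2, Nap1l5, Osbpl5 and Plagl1, and in 8.68% of all 32851 windows. The 7 include 2 Mest windows that are offset by 3 bases and hold the same 2 copies, so that sequence is counted more than once. The windows of the members held a median of 12 CpG dinucleotides, with a range of 0 to 40, and all windows held a median of 6. A match describes these letters only, and a window without it says nothing about binding nearby. Below are the windows of 4 paternally expressed genes that changed by at least 1 log2 unit in EpiLC and whose promoters are known control regions, with the hexamer in capitals. They lie at chr6:30737800-30738049 (plus strand), chr10:13090582-13090831 (plus strand), chr2:157559828-157560077 (plus strand) and chr7:6730420-6730669 (minus strand) of GRCm38.p6, in the order shown.
Mest: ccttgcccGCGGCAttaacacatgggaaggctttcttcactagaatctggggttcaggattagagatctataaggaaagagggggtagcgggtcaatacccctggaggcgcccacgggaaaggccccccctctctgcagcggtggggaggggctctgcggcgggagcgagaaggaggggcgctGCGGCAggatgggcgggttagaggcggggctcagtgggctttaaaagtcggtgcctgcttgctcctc
Plagl1: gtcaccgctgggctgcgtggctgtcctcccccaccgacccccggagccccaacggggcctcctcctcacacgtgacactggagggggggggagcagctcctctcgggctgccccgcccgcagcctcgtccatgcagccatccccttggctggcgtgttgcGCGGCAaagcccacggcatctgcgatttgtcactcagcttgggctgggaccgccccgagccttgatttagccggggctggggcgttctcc
Nnat: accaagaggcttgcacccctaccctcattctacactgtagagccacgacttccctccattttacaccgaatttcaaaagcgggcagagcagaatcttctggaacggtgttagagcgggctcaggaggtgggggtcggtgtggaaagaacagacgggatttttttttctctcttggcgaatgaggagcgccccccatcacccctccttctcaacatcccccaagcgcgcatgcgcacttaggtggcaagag
Peg3: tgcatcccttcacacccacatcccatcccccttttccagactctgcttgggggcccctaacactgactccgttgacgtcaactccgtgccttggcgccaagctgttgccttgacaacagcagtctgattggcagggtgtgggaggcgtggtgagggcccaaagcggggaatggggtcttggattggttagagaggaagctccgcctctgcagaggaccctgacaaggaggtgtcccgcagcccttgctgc
For a gene with several windows, the one with the most copies of the hexamer was chosen. The Mest window shown holds the hexamer 2 times and the Plagl1 window once, in each case read as GCGGCA on the gene's strand. Another Mest window, at chr6:30733256-30733505, holds 0 copies, so the match shown for Mest follows from that choice. The Nnat and Peg3 windows do not hold it. The numbers of CpG in the 4 windows were 14, 19, 12 and 8. These genes did not move alike: Mest, Nnat and Peg3 rose in EpiLC and Plagl1 fell, as described next. Positions given from here on are those of the deposited tables, in build mm9.

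EpiLC were set against wild-type ESC to follow imprinted genes into the primed-like state; the media differ too, and state and medium cannot be told apart. Most of the imprinted genes with large changes rose: the paternally expressed Nnat, Peg10, Mest, Peg3 and the Snrpn locus, the maternally expressed Cdkn1c and Grb10, and Gnas and Ppp1r9a. Plagl1 and Peg12, both paternally expressed, fell to low levels, and 2 loci of Commd1 fell as well. Of the 33 tested loci, 14 were higher and 10 lower in EpiLC with limma at a Benjamini-Hochberg adjusted p under 0.05, where 35.8% of all tested loci were higher and 38.8% lower (74.6% in either direction). Changes of at least 1 log2 unit were called for 9 loci upward and 4 downward, where 6.53% and 8.58% of all tested loci had them (15.1% together). By parental origin, 6 of the 13 tested paternally expressed genes were higher and 4 lower, and 4 of the 6 tested maternally expressed genes were higher and 2 lower. The median log2 fold change was 0.01 over these loci and -0.02 over all tested loci. Fold changes were computed after adding 1 to each FPKM, so those of weakly expressed genes are understated, and are given ± SE.

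**Figure D1:**
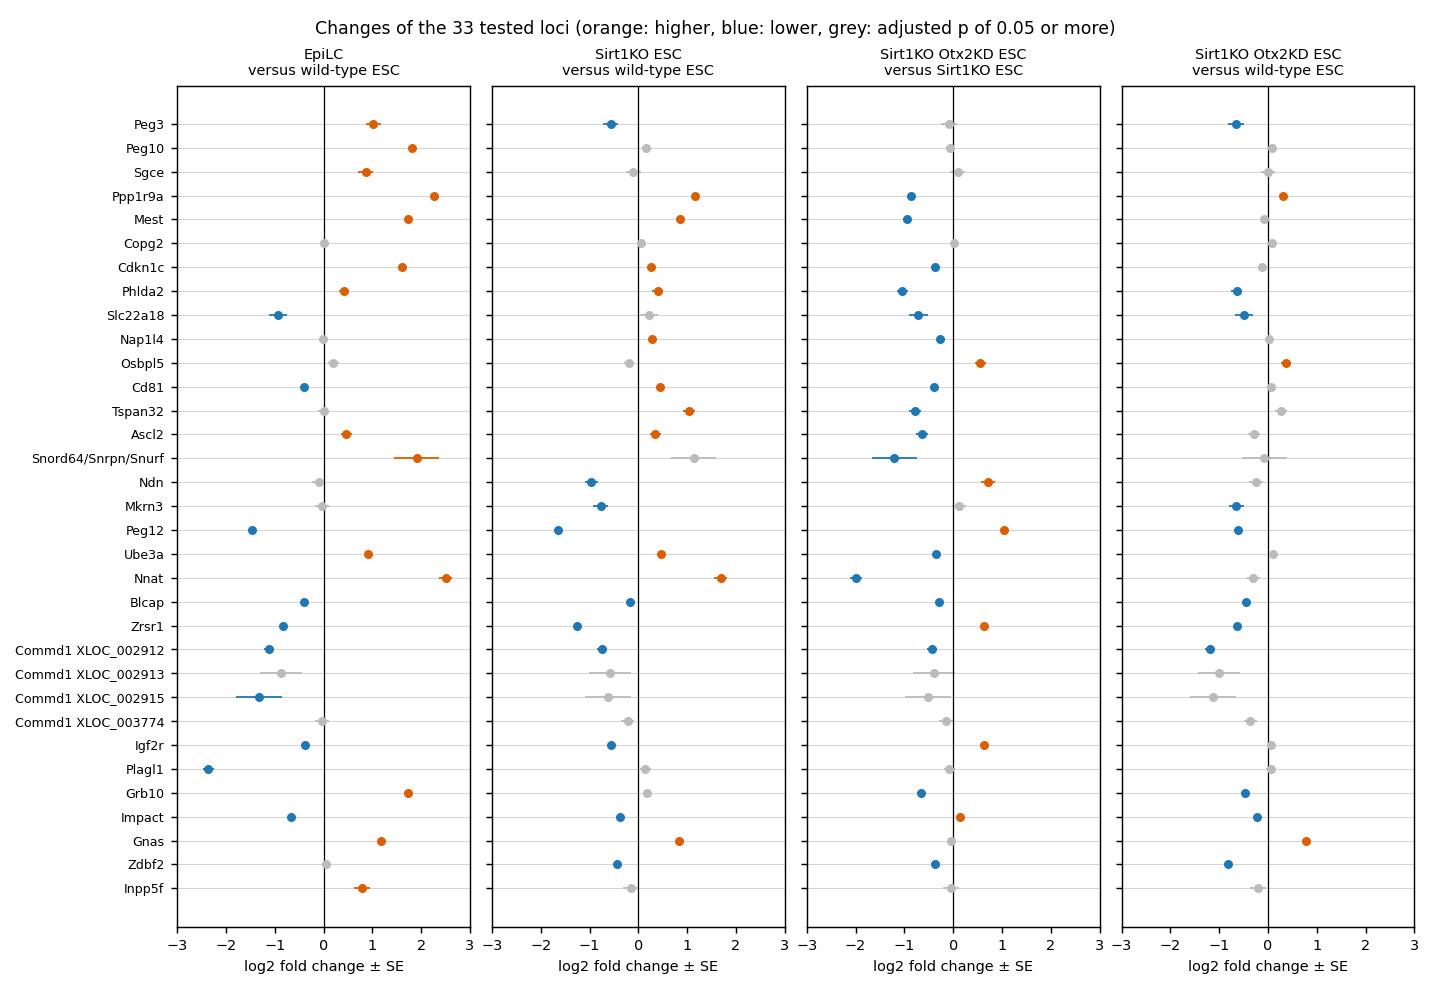
Log2 fold change ± SE of the 33 tested loci in the 4 comparisons, with loci grouped by imprinted cluster down the page and a vertical line at 0; orange points were called higher, blue points lower and grey points neither. In EpiLC 14 loci were higher and 10 lower (35.8% and 38.8% of all tested loci). In Sirt1KO Otx2KD against Sirt1KO 6 were higher and 16 lower (31.1% and 31.5% of all). The latter counts include Osbpl5 and Tspan32, each tested only through the group where it is high.

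Among the paternally expressed genes, Nnat encodes neuronatin, a small membrane proteolipid (chromosome 2, within the span 157382097 to 157392097 that it shares with Blcap). Nnat had 20.7, 24.5 and 20.9 FPKM in EpiLC, against 3.09, 3.25 and 2.84 FPKM in wild-type ESC (log2 2.50 ± 0.13, adjusted p = 6.82e-10). All 3 EpiLC libraries lay above all wild-type ESC libraries. Blcap, the gene in whose intron Nnat lies, moved the other way, with 10.6, 11.5 and 10.8 FPKM in EpiLC and 15.3, 14.8 and 14.5 FPKM in wild-type ESC (log2 -0.41 ± 0.06). Peg10, a gene derived from a retrotransposon that the placenta needs (chromosome 6, 4697305 to 4710516), had 17.3, 18.2 and 17.4 FPKM in EpiLC, against 4.21, 4.48 and 4.22 FPKM in wild-type ESC (log2 1.81 ± 0.08, adjusted p = 5.93e-11). Its groups did not overlap either. Sgce, epsilon-sarcoglycan, starts beside Peg10 and is read in the other direction; it rose as well, to 2.86 ± 0.634 FPKM in EpiLC, against 1.12 ± 0.331 FPKM in wild-type ESC (log2 0.86 ± 0.15).

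Mest, which encodes an enzyme of the alpha/beta-hydrolase fold (chromosome 6, within the span 30683505 to 30846768 that it shares with Copg2), had 32.0, 34.6 and 30.7 FPKM in EpiLC, against 8.59, 8.58 and 9.86 FPKM in wild-type ESC (log2 1.74 ± 0.08, adjusted p = 2.76e-10). Copg2, a coatomer subunit that overlaps Mest, stood at 28.6, 29.9 and 29.9 FPKM in EpiLC and 29.7, 28.1 and 29.9 FPKM in wild-type ESC, with groups that overlap (log2 0.01 ± 0.04, adjusted p = 0.797). Peg3, a zinc finger protein (chromosome 7, 6656600 to 6683161), had 48.4, 47.5 and 40.4 FPKM in EpiLC, against 25.8, 23.1 and 17.2 FPKM in wild-type ESC (log2 1.02 ± 0.16, adjusted p = 0.000201). The lowest EpiLC library was above the highest wild-type ESC library. The locus of Snrpn (a core spliceosome protein), Snurf and Snord64 had 138, 130.5 and 133 FPKM in EpiLC, against 33.2, 33.9 and 37.6 FPKM in wild-type ESC (chromosome 7, 67120933 to 67285105; log2 1.91 ± 0.46, adjusted p = 0.00503). The value cannot be split between the 3 genes.

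Plagl1 and Peg12 stood out among the genes that fell. Plagl1 encodes Zac1, a zinc finger transcription factor that restrains growth (chromosome 10, 12810593 to 12851501). Plagl1 had 0.472, 0.278 and 0.374 FPKM in EpiLC, against 6.39, 5.79 and 5.93 FPKM in wild-type ESC (log2 -2.36 ± 0.11, adjusted p = 1.44e-10). Every EpiLC library was under 1 FPKM and every wild-type ESC library above 5 FPKM. Peg12, a member of the FRAT family that binds GSK3 (chromosome 7, 69606756 to 69609396), had 0.226, 0.304 and 0.320 FPKM in EpiLC, against 2.47, 2.67 and 2.52 FPKM in wild-type ESC (log2 -1.47 ± 0.08, adjusted p = 1.45e-09). Peg12 reached 1 FPKM in 6 libraries, those of wild-type ESC and Sirt1KO Otx2KD. It was tested through these groups, where it is high, and either of them alone meets the filter. Zrsr1, an intronless gene related to the splicing factor U2af1, fell to 7.23 ± 0.275 FPKM in EpiLC, against 13.6 ± 0.358 FPKM in wild-type ESC (log2 -0.83 ± 0.06, beside the chromosome 11 median of -0.46). Reads of Zrsr1 may be shared with its relative Zrsr2, so its level is uncertain. Impact, an inhibitor of the stress kinase Gcn2, fell to 32.5 ± 1.84 FPKM in EpiLC, against 52.4 ± 1.75 FPKM in wild-type ESC (log2 -0.67 ± 0.05). The neighbours of Peg12 did not pass: Ndn (necdin) had a log2 fold change of -0.10 ± 0.14 (adjusted p = 0.548) and the RING finger gene Mkrn3 one of -0.03 ± 0.15 (adjusted p = 0.878). Zdbf2, a zinc finger gene, had 8.81 ± 0.928 FPKM in EpiLC and 8.47 ± 0.162 FPKM in wild-type ESC (log2 0.05 ± 0.07, adjusted p = 0.553).

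Of the maternally expressed genes, Cdkn1c encodes the cell cycle inhibitor p57 (chromosome 7, 150644243 to 150646955). Cdkn1c had 16.3, 16.2 and 16.5 FPKM in EpiLC, against 4.88, 4.95 and 4.35 FPKM in wild-type ESC (log2 1.60 ± 0.08, adjusted p = 3.56e-10). Grb10, an adaptor that restrains insulin and Igf receptor signalling (chromosome 11, 11830501 to 11937423), had 66.9, 66.5 and 67.2 FPKM in EpiLC, against 20.9, 17.8 and 19.5 FPKM in wild-type ESC (log2 1.74 ± 0.08, adjusted p = 3.99e-10). Its rise ran against the chromosome 11 median. In both genes the 3 EpiLC libraries agree within a narrow range, well above the wild-type ESC libraries. The trophoblast factor Ascl2 (log2 0.47 ± 0.12) and Phlda2, a restraint on placental growth (0.42 ± 0.11), rose less. Igf2r, the receptor that clears Igf2 (log2 -0.37 ± 0.05), and the membrane transporter Slc22a18 (-0.93 ± 0.19) fell, and Slc22a18 had 0.834, 1.59 and 1.18 FPKM in EpiLC, against 3.12, 4.08 and 2.40 FPKM in wild-type ESC.

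Of the genes whose imprinting is partial, limited to some tissues or complex, Gnas had 193, 193 and 182 FPKM in EpiLC, against 80.6, 84.0 and 85.9 FPKM in wild-type ESC (chromosome 2, 174106737 to 174172243; log2 1.17 ± 0.05, adjusted p = 5.15e-11). Gnas encodes the stimulatory G protein subunit, and its locus also makes transcripts from other promoters that the value does not separate. Its antisense partner Nespas, which is no member, rose too (log2 1.55 ± 0.12), and no strand setting is given for the libraries, so reads of overlapping genes may be mixed. Ppp1r9a, which encodes neurabin, an actin-binding partner of protein phosphatase 1, had 6.40, 7.07 and 6.62 FPKM in EpiLC, against 0.571, 0.633 and 0.594 FPKM in wild-type ESC (chromosome 6, 4853319 to 5115661; log2 2.27 ± 0.07, adjusted p = 4.43e-12). No library of the 2 groups came near those of the other group. The ubiquitin ligase Ube3a (log2 0.92 ± 0.06) and the phosphoinositide phosphatase Inpp5f (0.79 ± 0.16) rose, while the tetraspanin Cd81 fell to 148 ± 2.65 FPKM in EpiLC, against 194 ± 5.12 FPKM in wild-type ESC (log2 -0.39 ± 0.04). The histone chaperone Nap1l4 (log2 -0.02 ± 0.03, adjusted p = 0.598), the lipid transfer gene Osbpl5 (0.20 ± 0.11, adjusted p = 0.106) and the tetraspanin Tspan32 (0.00 ± 0.12, adjusted p = 0.999) did not pass.

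Commd1, a regulator of copper handling in whose intron Zrsr1 lies, is split into 4 loci with the same span (chromosome 11, 22799726 to 22882309). Commd1 XLOC_002912 had 29.9, 30.9 and 29.9 FPKM in EpiLC, against 70.8, 60.2 and 70.4 FPKM in wild-type ESC (log2 -1.12 ± 0.10, adjusted p = 8.40e-07), beside the chromosome 11 median of -0.46. Commd1 XLOC_002915 had 35.8, 20.6 and 39.8 FPKM in EpiLC, against 84.8, 102 and 55.4 FPKM in wild-type ESC (log2 -1.32 ± 0.47, adjusted p = 0.0316), a call lost without EpiLC replicate 1 (adjusted p = 0.0514) or 2 (0.105) or wild-type ESC replicate 1 (0.0774) or 2 (0.0971), and with chromosome medians removed (0.137). Commd1 XLOC_002913 had 22.9, 40.5 and 14.4 FPKM in EpiLC and 47.7, 43.6 and 42.9 FPKM in wild-type ESC and did not pass (adjusted p = 0.0976), although it did without EpiLC replicate 2 (0.0279). Commd1 XLOC_003774 had 77.2, 64.4 and 97.6 FPKM in EpiLC and 75.5, 88.0 and 77.6 FPKM in wild-type ESC (adjusted p = 0.864). The 4 loci of this gene thus gave unequal values.

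**Figure D2:**
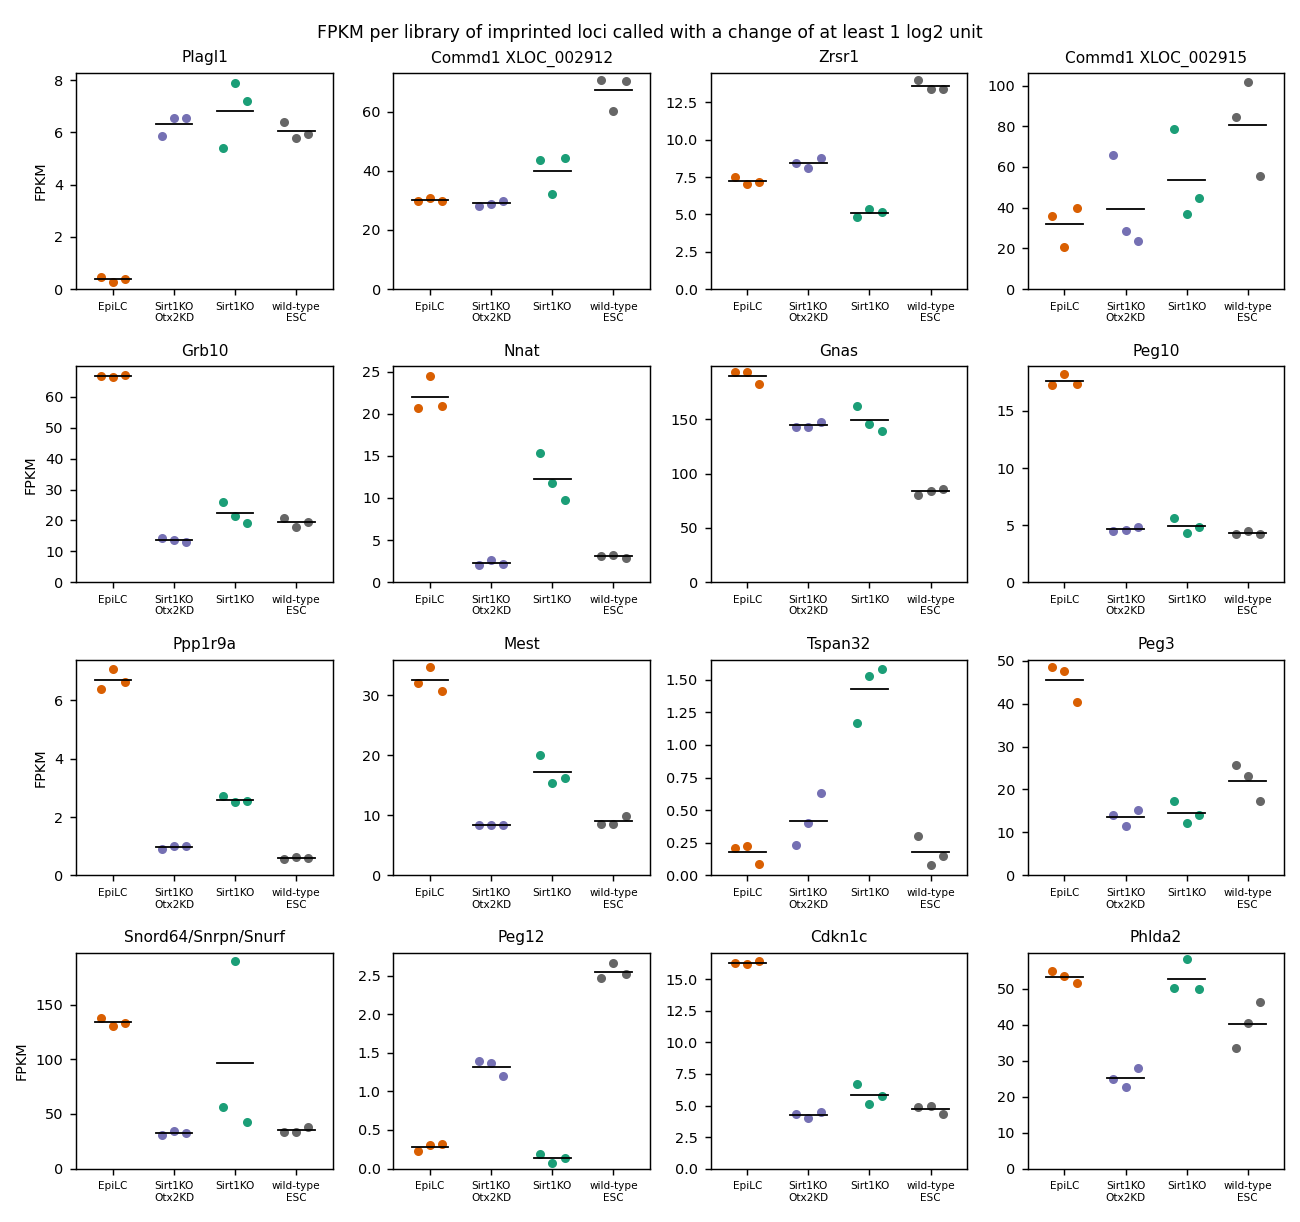
FPKM (linear axis from 0) in each of the 12 libraries for the 16 loci called in 1 or more comparisons at a log2 change of 1 or more; points are libraries and bars are group means, with EpiLC, Sirt1KO Otx2KD, Sirt1KO and wild-type ESC from left to right. Nnat stood at 20.7 to 24.5 FPKM in EpiLC and 9.76 to 15.3 in Sirt1KO, above the other groups, and the Snrpn locus had 189.8 FPKM in 1 Sirt1KO library.

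Sirt1KO ESC were set against wild-type ESC in the same medium, which addresses loss of Sirt1 in naive conditions. The number of clones is not stated, so loss of Sirt1 and other differences between the cell lines cannot be told apart. Nnat, Mest, Ppp1r9a and Gnas rose, as did 6 of the 8 tested genes of the Kcnq1 cluster, among them Tspan32, which was tested only because its 3 Sirt1KO libraries reached 1 FPKM. Peg12 and Zrsr1 fell most, and Ndn, Mkrn3, Igf2r, Peg3, Zdbf2 and Impact fell as well. Peg12 passed the filter only through wild-type ESC and Sirt1KO Otx2KD, where it is high. Of the 33 loci, 11 were higher and 10 lower, where 32.4% of all tested loci were higher and 32.7% lower (65.0% in either direction). Changes of at least 1 log2 unit were called for 3 loci upward (Nnat, Ppp1r9a and Tspan32) and 2 downward, where 2.73% and 4.89% of all tested loci had them (7.61% together), and the median log2 fold change of the loci was 0.06 (0.01 over all). Of the paternally expressed genes, 2 of 13 were higher and 7 lower, and of the maternally expressed ones 3 of 6 were higher and 1 lower. This comparison and that of EpiLC share the wild-type ESC libraries.

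Nnat had 15.3, 11.8 and 9.76 FPKM in Sirt1KO, against 3.09, 3.25 and 2.84 FPKM in wild-type ESC (log2 1.69 ± 0.13, adjusted p = 6.83e-08). Sirt1KO replicate 1, the library with the highest sum of primed markers, was also the highest for Nnat, and the groups did not overlap. Mest had 20.1, 15.4 and 16.2 FPKM in Sirt1KO, against 8.59, 8.58 and 9.86 FPKM in wild-type ESC (log2 0.86 ± 0.08, adjusted p = 8.00e-07), again with its highest value in Sirt1KO replicate 1. Ppp1r9a had 2.73, 2.51 and 2.54 FPKM in Sirt1KO, against 0.571, 0.633 and 0.594 FPKM in wild-type ESC (log2 1.17 ± 0.07, adjusted p = 7.54e-09). Gnas had 162, 146 and 139 FPKM in Sirt1KO, against 80.6, 84.0 and 85.9 FPKM in wild-type ESC (log2 0.83 ± 0.05). All 4 genes were higher in every Sirt1KO library than in any wild-type ESC library. Of all tested loci, 32.4% were called higher in this comparison, and how many had groups apart in this way was not counted. Ube3a rose to 21.0 ± 1.15 FPKM in Sirt1KO, against 15.0 ± 0.783 FPKM in wild-type ESC (log2 0.47 ± 0.06).

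The Kcnq1 cluster on distal chromosome 7 is controlled by the silencing RNA Kcnq1ot1. Tspan32 had 1.17, 1.53 and 1.58 FPKM in Sirt1KO, against 0.305, 0.0774 and 0.150 FPKM in wild-type ESC (log2 1.04 ± 0.12, adjusted p = 4.28e-06). It passed the filter through its 3 Sirt1KO libraries alone, so a difference of these libraries was built into its being tested. Cd81 (log2 0.45 ± 0.04), Nap1l4 (0.28 ± 0.03), Phlda2 (0.40 ± 0.11), Ascl2 (0.35 ± 0.12) and Cdkn1c (0.26 ± 0.08) rose as well. Cd81, the most abundant of them, had 251, 271 and 278 FPKM in Sirt1KO, against 196, 188 and 198 FPKM in wild-type ESC, and Phlda2 had 50.3, 58.2 and 49.8 FPKM against 33.5, 40.3 and 46.3 FPKM. The rise of Ascl2 (adjusted p = 0.0242) was lost without Sirt1KO replicate 1 (0.123) or wild-type ESC replicate 1 (0.079) or 2 (0.0887), and that of Cdkn1c (adjusted p = 0.0115) without Sirt1KO replicate 1 (0.0582) or wild-type ESC replicate 3 (0.0534). Slc22a18 (log2 0.22 ± 0.19, adjusted p = 0.323) and Osbpl5 (-0.19 ± 0.11, adjusted p = 0.139) did not pass.

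**Figure D3:**
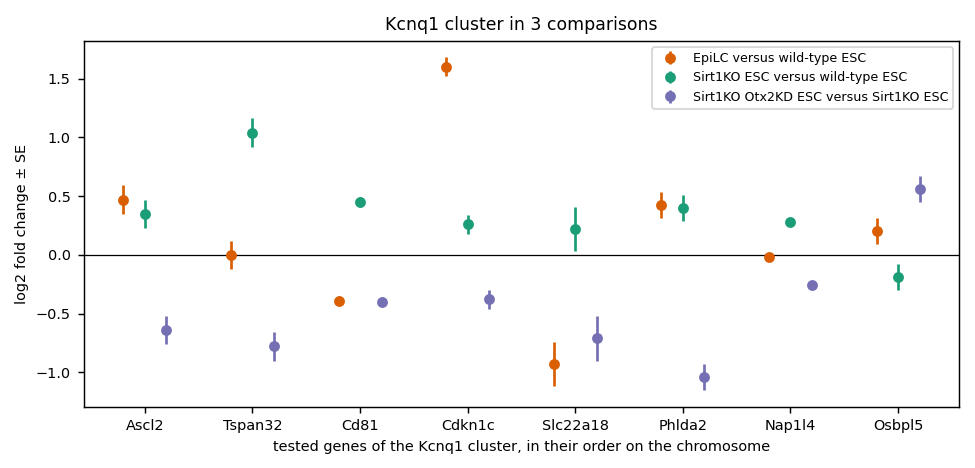
Log2 fold change ± SE of the 8 tested genes of the Kcnq1 cluster, in their order along chromosome 7, in EpiLC against wild-type ESC (orange), Sirt1KO against wild-type ESC (green) and Sirt1KO Otx2KD against Sirt1KO (violet). Against Sirt1KO, Sirt1KO Otx2KD was lower for 7 genes and higher for Osbpl5 (0.56), where 31.5% of all tested loci were lower and 31.1% higher. Osbpl5 and Tspan32 were each tested only through the group where they are high. Cdkn1c stood at 1.60 in EpiLC and 0.26 in Sirt1KO.

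Among the genes that fell in Sirt1KO, Peg12 had 0.194, 0.0679 and 0.140 FPKM in Sirt1KO, against 2.47, 2.67 and 2.52 FPKM in wild-type ESC (log2 -1.65 ± 0.08, adjusted p = 9.83e-10). Zrsr1 had 4.82, 5.38 and 5.15 FPKM in Sirt1KO, against 14.0, 13.4 and 13.4 FPKM in wild-type ESC (log2 -1.26 ± 0.06, adjusted p = 3.75e-10), beside a chromosome 11 median of -0.49. The groups were far apart for both genes. Within the Snrpn cluster, Ndn had 4.43, 3.43 and 2.42 FPKM in Sirt1KO, against 8.05, 7.61 and 6.72 FPKM in wild-type ESC (log2 -0.96 ± 0.14, adjusted p = 4.24e-05), and Mkrn3 fell by 0.77 ± 0.15 on the log2 scale. Igf2r fell to 14.2 ± 0.605 FPKM in Sirt1KO, against 21.6 ± 1.26 FPKM in wild-type ESC (log2 -0.57 ± 0.05). Peg3 had 17.2, 12.3 and 14.0 FPKM in Sirt1KO, against 25.8, 23.1 and 17.2 FPKM in wild-type ESC (log2 -0.57 ± 0.16, adjusted p = 0.011), with groups that nearly touch. The falls of Zdbf2 (log2 -0.43 ± 0.07), Impact (-0.37 ± 0.05) and Blcap (-0.17 ± 0.06) were smaller, and that of Blcap (adjusted p = 0.0241) was lost without Sirt1KO replicate 3 (0.106) or wild-type ESC replicate 1 (0.0739), and under quantile normalization (0.0783). All 14 tested fibroblast and feeder markers fell in this comparison too.

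The Snrpn locus had 56.3, 189.8 and 42.7 FPKM in Sirt1KO, against 33.2, 33.9 and 37.6 FPKM in wild-type ESC, and did not pass (log2 1.13 ± 0.46, adjusted p = 0.0606). The value of Sirt1KO replicate 2 was far above the other 2, and without that library the difference was smaller and passed (log2 0.48, adjusted p = 0.000998). It also passed without Sirt1KO replicate 3 (log2 1.55, adjusted p = 0.0153). The locus includes a small nucleolar RNA, and of the 20 tested loci whose merged names hold one, between 0 and 5 per library were at least 1 log2 unit above the mean of the other 2 libraries of their group, with 3 in Sirt1KO replicate 2. Commd1 XLOC_002912 had 43.7, 32.0 and 44.3 FPKM in Sirt1KO, against 70.8, 60.2 and 70.4 FPKM in wild-type ESC (log2 -0.74 ± 0.10, adjusted p = 4.99e-05), a fall that missed the threshold once chromosome medians were removed (log2 -0.26, adjusted p = 0.0529). The other 3 Commd1 loci did not pass (adjusted p = 0.19 to 0.281).

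Several members did not pass in Sirt1KO. Grb10 had 26.0, 21.6 and 19.3 FPKM in Sirt1KO and 20.9, 17.8 and 19.5 FPKM in wild-type ESC (log2 0.18 ± 0.08, adjusted p = 0.0733), with groups that overlap. It was called higher without Sirt1KO replicate 3 (adjusted p = 0.00786) or wild-type ESC replicate 1 (0.0439), under quantile normalization (0.0377) and with chromosome medians removed (log2 0.67, adjusted p = 1.17e-05). Peg10 (log2 0.15 ± 0.08, adjusted p = 0.096) equalled the chromosome 6 median and passed without Sirt1KO replicate 2 (0.018). Plagl1 (log2 0.14 ± 0.11, adjusted p = 0.273) passed without Sirt1KO replicate 1 (log2 0.28, adjusted p = 0.015), and Inpp5f (-0.16 ± 0.16, adjusted p = 0.386) without wild-type ESC replicate 3 (log2 -0.39, adjusted p = 0.00941). Peg10 had 5.64, 4.30 and 4.80 FPKM in Sirt1KO and Plagl1 had 5.39, 7.88 and 7.18 FPKM in Sirt1KO, in both cases overlapping the wild-type ESC libraries. Sgce (log2 -0.10 ± 0.15, adjusted p = 0.586) and Copg2 (0.06 ± 0.04, adjusted p = 0.188) did not pass either.

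Sirt1KO Otx2KD ESC were set against Sirt1KO ESC, which addresses knockdown of Otx2 on the Sirt1KO background. Clones and means of knockdown are not stated, so knockdown and other differences between these cells cannot be told apart. Nnat fell most, followed by the Snrpn locus, whose call was lost under several settings, and Phlda2. Mest, Ppp1r9a, Grb10 and Ube3a fell too, along with 7 of the 8 tested genes of the Kcnq1 cluster, Phlda2 among them. Peg12, Ndn, Zrsr1 and Igf2r rose. The counts here include Osbpl5 (higher) and Tspan32 (lower), which each reached 1 FPKM only in the group where they are high and so had to differ. Of the 33 loci, 6 were higher and 16 lower, where 31.1% of all tested loci were higher and 31.5% lower (62.6% in either direction). Changes of at least 1 log2 unit were called for 1 locus upward and 3 downward, where 3.82% and 1.88% of all tested loci had them (5.71% together), and the median log2 fold change of the loci was -0.28 (-0.01 over all). Of the paternally expressed genes, 4 of 13 were higher and 4 lower, and of the maternally expressed ones 1 of 6 was higher and 5 lower. This comparison shares the Sirt1KO libraries with that of Sirt1KO and wild-type ESC, so opposite signs in the 2 comparisons are not independent.

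Nnat had 2.03, 2.69 and 2.18 FPKM in Sirt1KO Otx2KD, against 15.3, 11.8 and 9.76 FPKM in Sirt1KO (log2 -1.99 ± 0.13, adjusted p = 2.08e-08). Mest had 8.34, 8.40 and 8.46 FPKM in Sirt1KO Otx2KD, against 20.1, 15.4 and 16.2 FPKM in Sirt1KO (log2 -0.95 ± 0.08, adjusted p = 4.24e-07). Ppp1r9a had 0.910, 0.993 and 1.00 FPKM in Sirt1KO Otx2KD, against 2.73, 2.51 and 2.54 FPKM in Sirt1KO (log2 -0.87 ± 0.07). For all 3 genes every Sirt1KO Otx2KD library lay below every Sirt1KO library, in a comparison where 31.5% of all tested loci were called lower. Grb10 had 14.2, 13.8 and 12.9 FPKM in Sirt1KO Otx2KD, against 26.0, 21.6 and 19.3 FPKM in Sirt1KO (log2 -0.66 ± 0.08), and Ube3a fell to 16.1 ± 0.167 FPKM, against 21.0 ± 1.15 FPKM (-0.36 ± 0.06). Falls were also called for Zdbf2 (log2 -0.38 ± 0.07), Blcap (-0.28 ± 0.06) and Commd1 XLOC_002912 (-0.44 ± 0.10).

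In the Kcnq1 cluster, Phlda2 had 24.9, 22.7 and 28.0 FPKM in Sirt1KO Otx2KD, against 50.3, 58.2 and 49.8 FPKM in Sirt1KO (log2 -1.04 ± 0.11, adjusted p = 5.58e-06). Tspan32 (log2 -0.78 ± 0.12), Slc22a18 (-0.71 ± 0.19), Ascl2 (-0.64 ± 0.12), Cd81 (-0.40 ± 0.04), Cdkn1c (-0.38 ± 0.08) and Nap1l4 (-0.26 ± 0.03) fell with it. Osbpl5, an oxysterol-binding protein relative at the end of the cluster, rose instead, with 1.05, 1.26 and 1.12 FPKM in Sirt1KO Otx2KD, against 0.578, 0.599 and 0.214 FPKM in Sirt1KO (log2 0.56 ± 0.11, adjusted p = 0.000516). It reached 1 FPKM in the 3 Sirt1KO Otx2KD libraries alone, which is how it came to be tested. Cdkn1c had 4.29, 4.02 and 4.48 FPKM in Sirt1KO Otx2KD, against 6.71, 5.15 and 5.74 FPKM in Sirt1KO. These shifts cover abundant genes such as Cd81 and weakly expressed ones such as Ascl2 alike.

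Peg12 had 1.39, 1.37 and 1.20 FPKM in Sirt1KO Otx2KD, against 0.194, 0.0679 and 0.140 FPKM in Sirt1KO (log2 1.04 ± 0.08, adjusted p = 1.54e-07). It was tested through the groups where it is high, Sirt1KO Otx2KD and wild-type ESC. Ndn had 6.34, 6.67 and 5.51 FPKM in Sirt1KO Otx2KD, against 4.43, 3.43 and 2.42 FPKM in Sirt1KO (log2 0.72 ± 0.14, adjusted p = 0.000546). In both genes the groups were apart. Zrsr1 rose to 8.44 ± 0.338 FPKM in Sirt1KO Otx2KD, against 5.12 ± 0.282 FPKM in Sirt1KO (log2 0.63 ± 0.06), and Igf2r to 22.6 ± 0.745 FPKM, against 14.2 ± 0.605 FPKM (0.63 ± 0.05). All 14 tested fibroblast and feeder markers rose in the same comparison, and how much of the RNA of these imprinted genes comes from such cells was not tested. The small rise of Impact (log2 0.15 ± 0.05, adjusted p = 0.0294) was lost without any of the 3 Sirt1KO Otx2KD libraries (adjusted p = 0.0504, 0.0661 and 0.0705) or without Sirt1KO replicate 3 (0.153), and with unnamed loci included (0.0517).

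**Figure D4:**
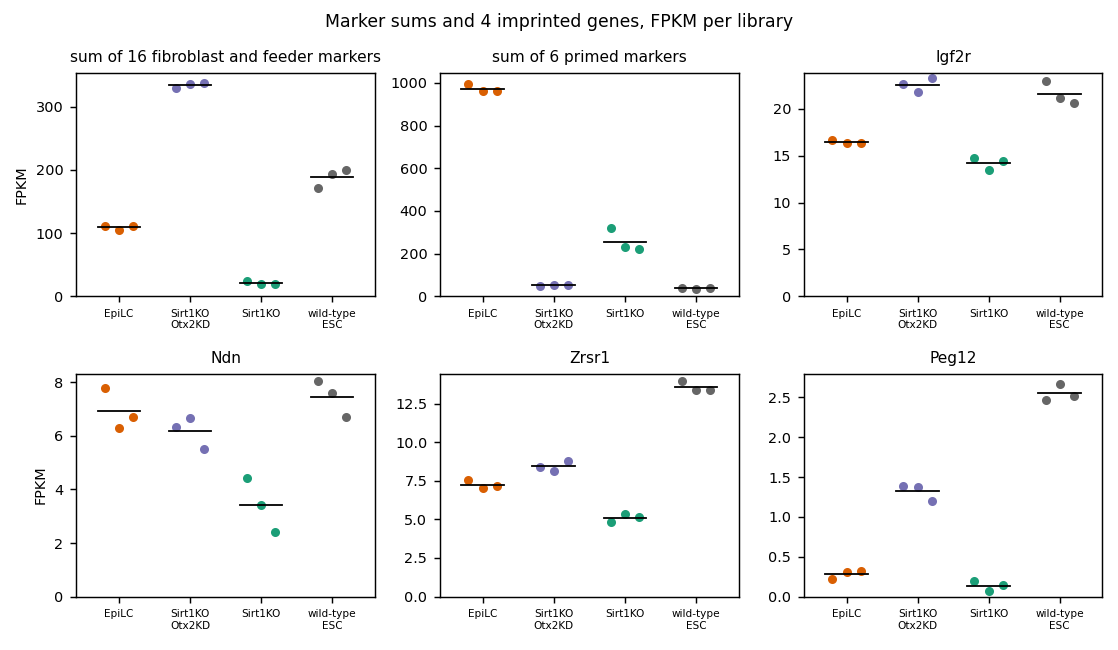
FPKM per library (linear axes from 0) of the summed fibroblast and feeder markers, the summed primed markers, and 4 imprinted genes that were lower in Sirt1KO than in both Sirt1KO Otx2KD and wild-type ESC; points are libraries and bars are group means, with EpiLC, Sirt1KO Otx2KD, Sirt1KO and wild-type ESC from left to right. The fibroblast sum lay between 329.7 and 337 FPKM in Sirt1KO Otx2KD and between 19.3 and 23.7 in Sirt1KO, and Igf2r, Ndn, Zrsr1 and Peg12 were also lower in Sirt1KO. Impact had the same calls and is not shown. Zdbf2, Peg3, Mkrn3, Blcap and Commd1 XLOC_002912, also not shown, fell in Sirt1KO with no called rise in Sirt1KO Otx2KD against Sirt1KO.

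The size of the fall of the Snrpn locus in Sirt1KO Otx2KD depended on a single Sirt1KO library. The locus (Snord64,Snrpn,Snurf in the deposited tables) had 30.9, 34.6 and 33.0 FPKM in Sirt1KO Otx2KD, against 56.3, 189.8 and 42.7 FPKM in Sirt1KO (log2 -1.21 ± 0.46, adjusted p = 0.0484), and without Sirt1KO replicate 2 the fall was smaller and still called (log2 -0.57, adjusted p = 0.000370). The call was lost without any of the 3 Sirt1KO Otx2KD libraries (adjusted p = 0.108, 0.089 and 0.0979), when only the 2 groups were fitted (0.179) and without a filter (0.0614). Peg3 (log2 -0.09 ± 0.16, adjusted p = 0.668), Peg10 (-0.07 ± 0.08, adjusted p = 0.457), Gnas (-0.04 ± 0.05, adjusted p = 0.469), Inpp5f (-0.05 ± 0.16, adjusted p = 0.812), Sgce (0.09 ± 0.15, adjusted p = 0.6), Copg2 (0.02 ± 0.04, adjusted p = 0.638) and Mkrn3 (0.12 ± 0.15, adjusted p = 0.489) did not pass. Plagl1 (log2 -0.08 ± 0.11, adjusted p = 0.527) passed without Sirt1KO replicate 1 (log2 -0.22, adjusted p = 0.0458). The 3 other Commd1 loci gave adjusted p = 0.375 to 0.448.

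Set against wild-type ESC, Sirt1KO Otx2KD ESC differed mainly by lower levels. Zdbf2, Peg3, Mkrn3, Phlda2, Zrsr1, Peg12 and a Commd1 locus were lower, and Gnas was the gene with the highest fold change. Of the 33 loci, 3 were higher (Gnas, Ppp1r9a and Osbpl5, the last tested only because its 3 Sirt1KO Otx2KD libraries reached 1 FPKM) and 11 lower, where 27.1% of all tested loci were higher and 26.8% lower (53.9% in either direction). A change of at least 1 log2 unit was called for 0 loci upward and 1 downward, where 1.49% and 1.75% of all tested loci had them (3.24% together), and the median log2 fold change of the loci was -0.22 (-0.00 over all). Without a filter, 5 were higher, the others being the weakly expressed Nap1l5 and Peg13, which are named because of these values.

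Gnas had 143, 143 and 147 FPKM in Sirt1KO Otx2KD, against 80.6, 84.0 and 85.9 FPKM in wild-type ESC (log2 0.78 ± 0.05, adjusted p = 1.76e-08). Zdbf2 had 4.58, 4.31 and 4.36 FPKM in Sirt1KO Otx2KD, against 8.65, 8.43 and 8.33 FPKM in wild-type ESC (log2 -0.81 ± 0.07, adjusted p = 3.90e-07). Neither pair of groups overlapped. Peg12 had 1.39, 1.37 and 1.20 FPKM in Sirt1KO Otx2KD, against 2.47, 2.67 and 2.52 FPKM in wild-type ESC (log2 -0.61 ± 0.08), between its Sirt1KO and wild-type levels. Commd1 XLOC_002912 had 28.2, 28.9 and 29.8 FPKM in Sirt1KO Otx2KD, against 70.8, 60.2 and 70.4 FPKM in wild-type ESC (log2 -1.18 ± 0.10), beside a chromosome 11 median of -0.39. The other falls were those of Peg3 (log2 -0.65 ± 0.16), Mkrn3 (-0.65 ± 0.15), Phlda2 (-0.64 ± 0.11), Zrsr1 (-0.63 ± 0.06), Slc22a18 (-0.49 ± 0.19), Grb10 (-0.48 ± 0.08), Blcap (-0.46 ± 0.06) and Impact (-0.22 ± 0.05). That of Grb10 did not hold with chromosome medians removed (log2 -0.09, adjusted p = 0.418), nor did the rise of Ppp1r9a (main log2 0.30 ± 0.07; 0.10, adjusted p = 0.271). The fall of Slc22a18 (adjusted p = 0.0429) was lost without Sirt1KO Otx2KD replicate 1 (0.18) or wild-type ESC replicate 1 (0.088) or 2 (0.166), and under 5 other settings.

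Nnat (log2 -0.30 ± 0.13, adjusted p = 0.0596), Mest (-0.09 ± 0.08, adjusted p = 0.402), Igf2r (0.06 ± 0.05, adjusted p = 0.327), Cd81 (0.06 ± 0.04, adjusted p = 0.244), Nap1l4 (0.02 ± 0.03, adjusted p = 0.706), Cdkn1c (-0.12 ± 0.08, adjusted p = 0.216) and Ndn (-0.24 ± 0.14, adjusted p = 0.166) did not pass against wild-type ESC. With chromosome medians removed, Mest was called lower (log2 -0.28, adjusted p = 0.0153), beside a chromosome 6 median of 0.19, and Ndn passed with only the 2 groups fitted (adjusted p = 0.0453). A missed threshold does not show that these levels are equal. Nnat passed without Sirt1KO Otx2KD replicate 2 (log2 -0.39, adjusted p = 0.0339), with a pseudocount of 0.1 (-0.40), under quantile normalization (-0.34) and with only the 2 groups fitted (-0.30). Tspan32 (log2 0.27 ± 0.12, adjusted p = 0.0819) passed without Sirt1KO Otx2KD replicate 1 (0.0318) or wild-type ESC replicate 1 (0.0494), and Inpp5f (-0.21 ± 0.16, adjusted p = 0.284) without wild-type ESC replicate 3 (0.00631). Commd1 XLOC_002915 (adjusted p = 0.0743) passed without Sirt1KO Otx2KD replicate 1 (0.0187). The remaining loci, Plagl1, Peg10, Sgce, Copg2, Ube3a, Ascl2, the Snrpn locus, Commd1 XLOC_002913 and Commd1 XLOC_003774, gave adjusted p between 0.0542 and 0.988. With only the 2 groups fitted, Commd1 XLOC_003774 (adjusted p = 0.000711) and Commd1 XLOC_002913 (0.0116) passed. Under quantile normalization, Ascl2 (log2 -0.33, adjusted p = 0.0389) and Copg2 (0.11, adjusted p = 0.0348) passed. Ascl2 also passed with chromosome medians removed (0.0458).

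The 9 loci that were not tested stayed under 1 FPKM in every library. Both silencing RNAs were among them: Airn, which silences Igf2r on the paternal copy, reached 0.735 FPKM and was listed at 0 in 5 libraries, and Kcnq1ot1 reached 0.134 FPKM. The libraries were selected for polyadenylated RNA, and no strand setting is given, so an antisense RNA that overlaps an active gene cannot be told apart from it here. Kcnq1, a potassium channel, was listed at 0 in 9 libraries and had 0.0668, 0.0585 and 0.0906 FPKM in the 3 Sirt1KO libraries. Magel2, a MAGE family gene beside Ndn, lay just outside the filter, with 0.968, 0.665 and 0.649 FPKM in EpiLC and at most 0.355 FPKM elsewhere. Just inside it, Tspan32 and Osbpl5 reached 1 FPKM in 3 libraries each. The deubiquitinase Usp29 reached 0.652 FPKM, Nap1l5 0.533 FPKM, the non-coding Peg13 0.256 FPKM, the Ras exchange factor Rasgrf1 0.126 FPKM and Asb4 0.122 FPKM.

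A list of 24 genes tied to imprint establishment and maintenance also holds Tet1, Tet2 and Tet3, which serve removal of DNA methylation. Of the 24 genes, 23 were tested, and all but Ctcfl exceeded 1 FPKM somewhere. Against wild-type ESC, 10 rose and 7 fell in EpiLC (35.8% and 38.8% of all tested loci), 11 rose and 2 fell in Sirt1KO Otx2KD (27.1% and 26.8% of all), and 10 rose and 11 fell in Sirt1KO (32.4% and 32.7% of all). Against Sirt1KO, 9 rose and 8 fell in Sirt1KO Otx2KD (31.1% and 31.5% of all). Zfp57 fell to 120.4 ± 2.98 FPKM in EpiLC, against 249 ± 11.7 FPKM in wild-type ESC (log2 -1.04 ± 0.05, adjusted p = 1.28e-10), and its log2 fold change was -0.19 ± 0.05 in Sirt1KO. Its partner Trim28 had 372 ± 16.2 FPKM in EpiLC, 347 ± 12.3 FPKM in Sirt1KO and 394 ± 32.8 FPKM in wild-type ESC, and it passed in Sirt1KO (log2 -0.18 ± 0.05, adjusted p = 0.00938) and not in EpiLC (-0.08 ± 0.05, adjusted p = 0.187). The call in Sirt1KO was lost with unnamed loci included (adjusted p = 0.0505), and Trim28 passed in EpiLC without wild-type ESC replicate 1 (0.00543). The maintenance methyltransferase Dnmt1 fell in Sirt1KO (log2 -0.32 ± 0.03) and in EpiLC (-0.10 ± 0.03, a call lost under quantile normalization with adjusted p = 0.598), and its guide Uhrf1 rose in Sirt1KO (0.49 ± 0.04). In Sirt1KO Otx2KD against Sirt1KO, Zfp57 (log2 0.34 ± 0.05), Trim28 (0.35 ± 0.05) and Dnmt1 (0.29 ± 0.03) were higher and Uhrf1 (-0.33 ± 0.04) lower. Dppa3, which protects imprints in the early embryo, fell in EpiLC (log2 -2.64 ± 0.04) and Sirt1KO (-1.63 ± 0.04) and was higher in Sirt1KO Otx2KD than in Sirt1KO (1.52 ± 0.04). The de novo methyltransferases Dnmt3a and Dnmt3b and their cofactor Dnmt3l rose by at least 1 log2 unit in EpiLC and Sirt1KO and fell by at least that in Sirt1KO Otx2KD against Sirt1KO. Whether the levels of these regulators bear on the imprinted genes was not tested.

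For the imprinted H19-Igf2 and Dlk1-Meg3 clusters, 9 loci were found. Of these 9 loci, 6 were tested, with a median log2 fold change of -2.67 in Sirt1KO against wild-type ESC, where that of the 33 loci described above was 0.06. In that comparison 5 were called lower and 1, Dio3, higher (log2 1.07 ± 0.09), where 32.7% and 32.4% of all tested loci were. Against Sirt1KO, the 6 loci had a median of 2.12 in Sirt1KO Otx2KD and all 6 were called higher, where 31.1% of all tested loci were. No test of the difference between the 2 sets of genes was made.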

How the data were processed

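The deposited tables give 1 FPKM value per locus and library as the authors computed it. Per the submitters' processing notes, TopHat, Cufflinks and Cuffdiff were used with build mm9, without versions, and library scaling and strand setting are not given in the sources used here. RNA was extracted with Trizol and selected with oligo-dT, per the labels' protocols. No read totals are given. Low FPKM values gave each library's depth as a multiple of that of wild-type ESC replicate 1, between 0.766 and 1.33. Unnamed loci (4778 of 27914) held 95.3% to 96.9% of the FPKM sum and were left out of the tests. Groups came from the sample titles, and no 2 libraries were identical.

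Values were log2(FPKM + 1), filtered at an FPKM of at least 1 in at least 3 libraries, and limma 3.58.1 (R 4.3.3) estimated 4 group means from the 12 libraries together, leaving 8 residual degrees of freedom, with trend and robust options in its empirical Bayes step. Benjamini-Hochberg adjustment covered all 12320 tested loci, and calls used an adjusted p under 0.05. Members, lists and alternatives were chosen with earlier results of these data known. Every member is named, and values in single libraries are given mainly for those called with at least a 1-unit log2 change. Alternatives changed the pseudocount, filter, scaling, chromosome medians, groups in the fit, replicate block, variance model and unnamed loci, and left out each library. The position of a locus is the span of its overlapping genes as deposited. No RefSeq promoter window was found for Cdkn1c, Impact, Kcnq1, Nap1l4, Peg10, Peg13 and Sgce.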

Additional observations from a re-analysis of the deposited data

How the results depend on the processing

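Counts of called loci stayed within 1.5 times under every alternative but 1: without a filter, 5 loci in place of 3 were higher in Sirt1KO Otx2KD than in wild-type ESC. Leaving out 1 library at a time gave 14 higher each time and 9 to 10 lower in EpiLC, 10 to 13 and 9 to 11 in Sirt1KO, 5 to 6 and 15 to 17 in Sirt1KO Otx2KD against Sirt1KO, and 3 to 4 and 10 to 12 in Sirt1KO Otx2KD against wild-type ESC. Over single loci, and leaving out no library, 1238 values kept direction and call, 15 lost and 19 gained a call, and 16 changed sign; none of those 16 was called in the reported fit. Replicate numbers did not pair the libraries (same-number correlations from -0.11 to 0.17). A replicate block gave 14 higher and 10 lower in EpiLC, 12 and 10 in Sirt1KO, 6 and 15 in Sirt1KO Otx2KD against Sirt1KO, and 3 and 12 against wild-type ESC; with it Grb10 in Sirt1KO (adjusted p = 0.0403) and Nnat in Sirt1KO Otx2KD against wild-type ESC (0.0445) passed and the Snord64,Snrpn,Snurf locus in Sirt1KO Otx2KD against Sirt1KO did not (0.0618). The following log2 fold changes had the opposite sign, and the cause was not tested. With quantile normalization they were 0.07 for Commd1 XLOC_003774 in EpiLC, 0.10 for Nap1l4 in EpiLC (adjusted p = 0.0180) and -0.01 for Sgce in Sirt1KO Otx2KD against Sirt1KO. With a pseudocount of 0.1, Sgce in Sirt1KO Otx2KD against wild-type ESC had 0.01. With chromosome medians removed, Commd1 XLOC_003774 had 0.44 in EpiLC (adjusted p = 0.0197), 0.03 in Sirt1KO Otx2KD against wild-type ESC and 0.26 in Sirt1KO. In the same setting Peg10 had -0.11 in Sirt1KO Otx2KD against wild-type ESC and -0.01 in Sirt1KO, and Mkrn3 had 0.03 in EpiLC. Copg2 then had -0.03 in EpiLC, -0.11 in Sirt1KO Otx2KD against wild-type ESC (adjusted p = 0.0306), -0.02 against Sirt1KO and -0.10 in Sirt1KO (0.0499), and Nap1l4 had 0.04 in EpiLC and -0.01 in Sirt1KO Otx2KD against wild-type ESC. Leaving out single libraries, the sign also varied in EpiLC for Zdbf2 (-0.03 to 0.10), Commd1 XLOC_003774 (-0.18 to 0.11), Copg2 (-0.02 to 0.03), Tspan32 (-0.06 to 0.08), Mkrn3 (-0.10 to 0.05) and Nap1l4 (-0.05 to 0.00). It varied in Sirt1KO Otx2KD against Sirt1KO for Plagl1 (-0.22 to 0.02), Gnas (-0.09 to 0.02), Peg10 (-0.14 to 0.02), Inpp5f (-0.13 to 0.05), Peg3 (-0.19 to 0.03) and Mkrn3 (-0.00 to 0.29), against wild-type ESC for Sgce (-0.13 to 0.09), and in Sirt1KO for Inpp5f (-0.39 to 0.00). The tables hold no read totals, so what depth limits among the weakly expressed genes is not known.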
